A study of Arabidopsis thaliana with 6 samples.

Results

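The nuclear genes for the photosystems and their light-harvesting antennae were compared between leaves of ddcc and wild-type Arabidopsis thaliana. They are 41 loci out of 31335 gene entries in the count table, chosen by name from the LHCA and LHCB antenna genes and the nuclear-encoded PSA and PSB subunit genes. The set is not complete: LHCA5, LHCA6, LHCB7 and PSBP2, among others, were placed in further lists counted below. Each of the 41 had an entry, and each passed the filter on low counts that left 18126 genes and 372 transposable elements (TEs), or 18498 features, for testing. The ddcc group held 3 mRNA libraries from plants labelled as mutant in DRM1, DRM2, CMT2 and CMT3, and the wild-type group held another 3. Both groups were Col-0 plants aged 28 days, grown on soil at 21 °C with 16 h of light and 8 h of darkness after 48 h at 4 °C. DRM1, DRM2, CMT2 and CMT3 encode DNA methyltransferases that act mainly on cytosines outside CG sites, and the comparison asks how transcript levels differ when they are mutated. The labels name neither the alleles, the number of plants in a library, the hour of harvest nor a batch, so the p-values measure the spread between these libraries, which may be technical.

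In plants, light is gathered by chlorophyll-binding LHC proteins and passed to photosystem II, which splits water at its oxygen-evolving complex, and to photosystem I, which reduces ferredoxin. The LHCA proteins form the belt of photosystem I. LHCB1, LHCB2 and LHCB3 make up the trimeric antenna of photosystem II, and LHCB4, LHCB5 and LHCB6 are its monomeric antenna proteins. The reaction-centre proteins themselves are encoded in the chloroplast, whereas the antennae and many peripheral subunits, the PSA and PSB genes described here, are encoded in the nucleus. In leaves these nuclear transcripts are among the most abundant, and their levels are known to follow light, the circadian clock, the GLK transcription factors and signals from the plastid.

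The libraries held 15188586 to 18809306 counts, and no replicate pair looked like 1 library deposited again: the chi-square divided by its degrees of freedom was 5.33 to 7.65 between ddcc libraries and 3.32 to 4.25 between wild-type libraries, well above the value of 1 that sampling alone gives. The first principal component, with 79.2% of the variance, separated the genotypes. On the second, which held 7.71%, ddcc replicates 1, 2 and 3 lay at 20.9, -28 and 6.02, and wild-type libraries at -6.15 to 4.87. As a check of the labels, DRM2, CMT2 and CMT3 had log2 fold changes of -1.14, -0.46 and -1.69 in ddcc, and DRM1 was not detectable in either genotype, with at most 1 count in a library. The leaf mesophyll markers RBCS1A, RCA, CA1 and CA2 together held 22954 to 24022 CPM in ddcc libraries and 24792 to 26993 CPM in wild-type libraries. CPM is a count scaled to a common library size, with no correction for gene length. The floral markers AP3, AG, PI and SEP3 summed to at most 0.428 CPM in ddcc libraries and 0.700 CPM in wild-type libraries. The seed markers CRA1, CRC, OLEO1 and SESA1 summed to at most 0.156 CPM in ddcc libraries and 0.292 CPM in wild-type libraries. Of the root markers, EXPA7 and AT1G30870 had no count in any library, and the 4 together reached 4.07 CPM in ddcc libraries and 4.32 CPM in wild-type libraries.

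The promoters of 5 LHCB genes are shown because these genes gave both the largest and the smallest differences described below. The 3 LHCB2 genes fell furthest as a family, whereas LHCB1.2 and LHCB1.3 lie close together on chromosome 1, and LHCB1.2 fell while LHCB1.3 was not called. Each run is the 250 bases before the annotated gene start, read 5′ to 3′ on the gene's strand from the TAIR10.1 genome, and capitals mark motif matches described next.
LHCB2.1, chr2:1824481-1824730, minus strand: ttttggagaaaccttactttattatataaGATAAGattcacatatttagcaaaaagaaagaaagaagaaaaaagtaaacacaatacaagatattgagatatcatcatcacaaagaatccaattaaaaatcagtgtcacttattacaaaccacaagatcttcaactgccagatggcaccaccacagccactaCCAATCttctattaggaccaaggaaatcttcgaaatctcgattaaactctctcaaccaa
LHCB2.2, chr2:1800473-1800722, minus strand: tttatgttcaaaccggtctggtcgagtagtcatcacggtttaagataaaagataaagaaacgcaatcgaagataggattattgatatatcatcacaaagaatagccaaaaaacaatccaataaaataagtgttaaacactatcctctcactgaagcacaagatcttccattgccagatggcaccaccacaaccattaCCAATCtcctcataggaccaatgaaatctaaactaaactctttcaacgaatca
LHCB2.3, chr3:10255656-10255905, plus strand: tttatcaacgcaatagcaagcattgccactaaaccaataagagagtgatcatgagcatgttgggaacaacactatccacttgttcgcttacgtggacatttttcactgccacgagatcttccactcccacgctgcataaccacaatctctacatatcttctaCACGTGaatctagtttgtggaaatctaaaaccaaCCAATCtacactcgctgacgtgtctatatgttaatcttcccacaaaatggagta
LHCB1.2, chr1:10473503-10473752, minus strand: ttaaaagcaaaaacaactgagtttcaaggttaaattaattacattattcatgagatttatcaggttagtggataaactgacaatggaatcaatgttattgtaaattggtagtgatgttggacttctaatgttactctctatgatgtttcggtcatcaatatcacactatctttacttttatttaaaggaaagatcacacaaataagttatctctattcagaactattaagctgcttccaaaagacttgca
LHCB1.3, chr1:10477635-10477884, plus strand: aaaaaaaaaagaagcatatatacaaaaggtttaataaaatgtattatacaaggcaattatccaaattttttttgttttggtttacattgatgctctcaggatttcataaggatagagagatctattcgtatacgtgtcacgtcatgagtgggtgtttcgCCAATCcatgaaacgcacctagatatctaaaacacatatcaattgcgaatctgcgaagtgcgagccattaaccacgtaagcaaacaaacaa

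The windows were searched on both strands for the G-box CACGTG, the I-box GATAAG, the CCA1 site AAAAATCT, the evening element AAAATATCT and CCAATC, a motif associated with GLK-bound promoters. None of these motifs overlaps another in the runs shown. All 3 LHCB2 promoters held CCAATC near the same place, with its first base 59, 53 and 54 bases before the start of LHCB2.1, LHCB2.2 and LHCB2.3. LHCB2.3 also held a G-box 88 bases before its start, and LHCB2.1 an I-box 221 bases before its start. LHCB1.3 held CCAATC 91 bases before its start, and the LHCB1.2 window held no match. LHCB2.1 and LHCB2.2 shared a run of 20 bases, tgccagatggcaccaccaca, the longest between any of the 820 pairs of the 41 promoters, for which the median was 8 bases.

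Over all 41 promoters CCAATC was found in 11, or 26.8%, against 10.2% of the 27443 promoters of nuclear protein-coding genes. It was present in 17.2% of the 29 promoters of genes called lower in ddcc and in 50% of the 12 promoters of genes not called. The G-box was found in 22% of the 41, against 6.49% of all promoters, with 20.7% of genes called lower and 25% of those not called. The I-box was found in 22%, against 12.3%, and here the split ran the other way, with 27.6% of genes called lower and 8.33% of those not called. The CCA1 site was found in 12.2%, against 6.69%, with 10.3% of genes called lower and 16.7% of those not called. The evening element was found in none of the 41 and in 2.36% of all promoters. These counts describe letters in a fixed window and were not tested. Some of the windows, among them those of LHCA1, LHCB6 and PSAH2, run into an annotated neighbouring locus. Matches there need not lie between genes. The LHCB windows shown above overlap no other annotated locus.

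All 41 genes had a log2 fold change below 0, as did 50.5% of all tested features, and 29 of them, or 70.7%, were called lower in ddcc by edgeR's quasi-likelihood test at an adjusted p under 0.05. Over all 18498 tested features, 12.7% were called lower and 15.5% higher. No photosystem gene was called higher, 0 were higher at an unadjusted p under 0.05, and DESeq2 also called 29 lower and 0 higher. The shifts were small for most of the genes. The median log2 fold change over the 41 was -0.23, beside -0.003 over all tested features, and only LHCB2.1, LHCB2.2, LHCB2.3, LHCB1.2 and PSAH2 were called with a fold change of -0.5 or less on the log2 scale, a call made for 5.03% of all features. Standard errors of the 41 log2 fold changes ran from 0.05 to 0.08.

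In 35 of the 41 genes, or 85.4%, the highest ddcc library stayed under the lowest wild-type library, an arrangement found in 21.0% of all tested features. The 6 genes whose groups overlapped were LHCB1.3, LHCB1.4, LHCB1.5, LHCB4.2, LHCB4.3 and PSBR. These transcripts are so abundant that they make up 18 of the 20 features with the highest mean CPM, uncorrected for length, so they were also set beside the 263 features with a mean of at least 400 CPM. Of those 263, 37.3% were called lower in ddcc and 19.4% higher, 44.9% had all ddcc libraries below the wild-type ones, 63.5% had a log2 fold change below 0 and 5.32% were called at -0.5 or less. Without the photosystem genes 223 abundant features remained, of which 30.9% were called lower and 22.9% higher, 37.2% had separate groups in that direction, 57.0% lay below 0 and 4.04% were called at -0.5 or less. The median log2 fold change of the 263 was -0.095 and that of the 223 was -0.043.

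**Figure D1:**
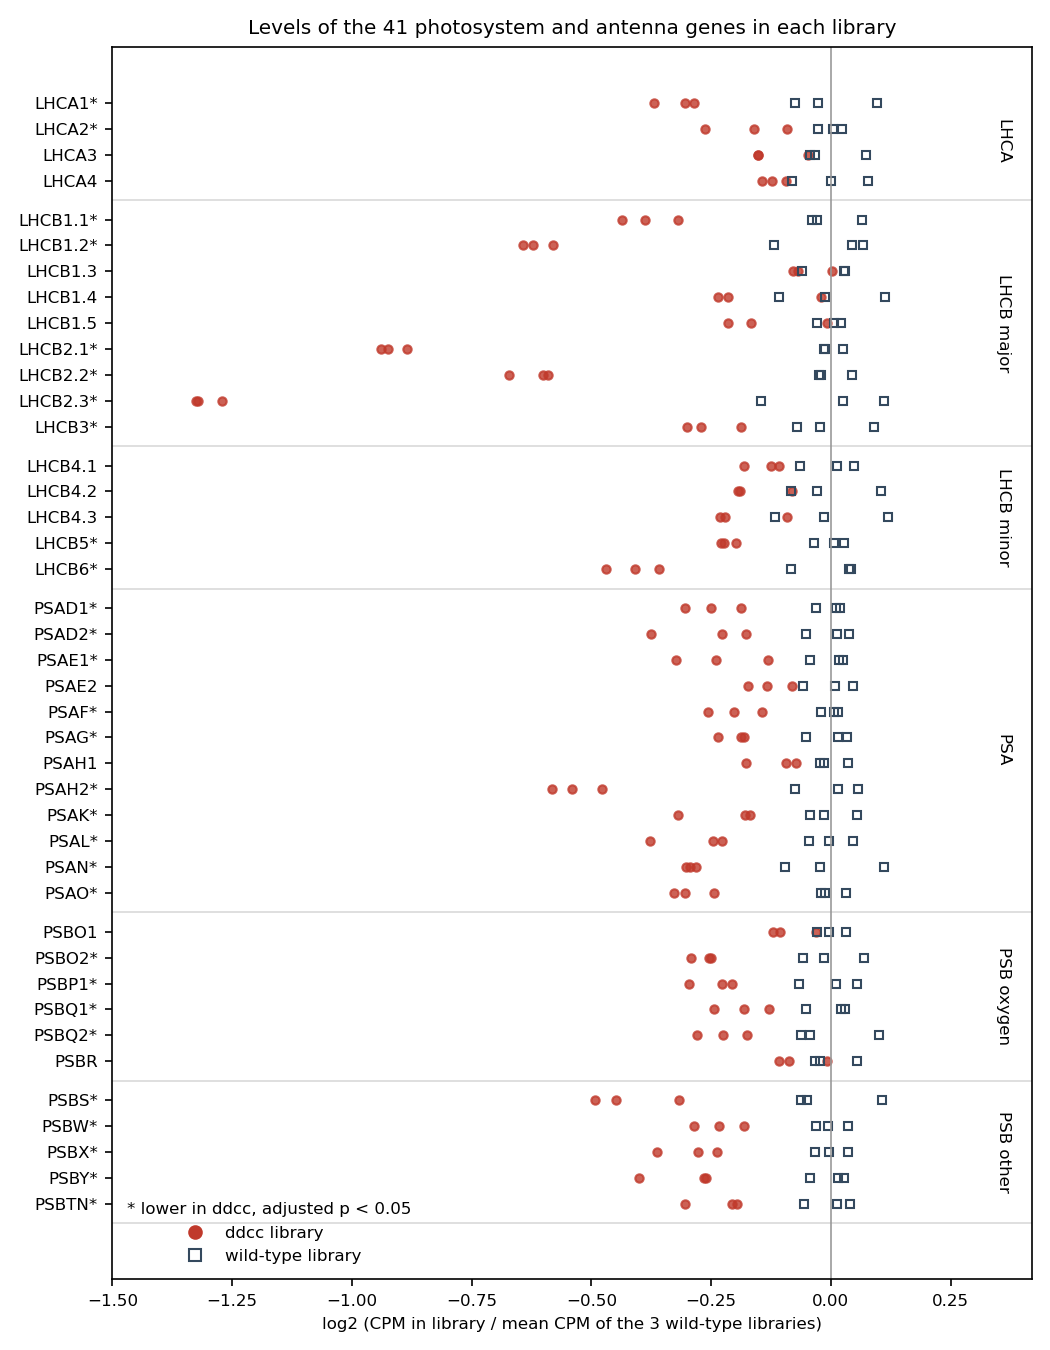
Level of each of the 41 genes in each library, as the log2 ratio of its CPM to the mean CPM of the 3 wild-type libraries (red discs, ddcc; open squares, wild type), grouped by role with a star for genes called lower. The ddcc libraries lie left of the wild-type libraries without overlap in 35 of the 41 rows, and the LHCB2 genes, LHCB1.2 and PSAH2 lie furthest left.

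**Figure D2:**
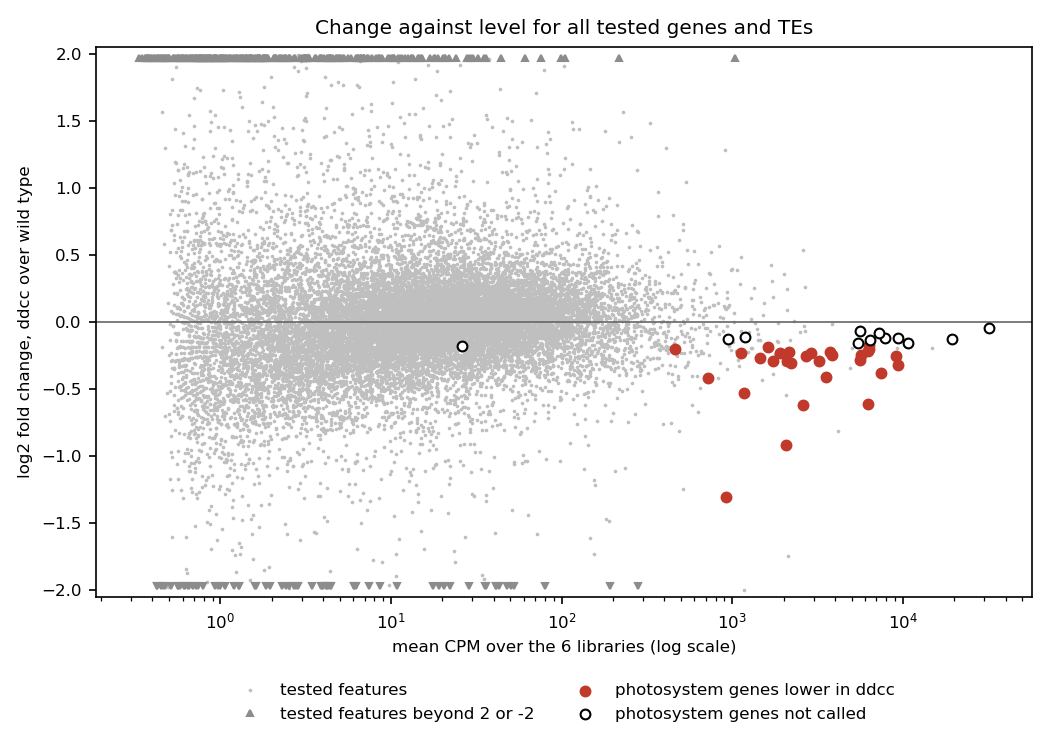
Log2 fold change of ddcc over wild type against mean CPM over the 6 libraries (log axis) for all 18498 tested features, with 341 features beyond 2 or -2 drawn as triangles at the edge. The 29 photosystem genes called lower (red) and the 12 not called (open) lie at the right, below 0 on the vertical axis, except that LHCB4.3 lies far to the left of the rest.

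Together the 41 genes took 19.4%, 19.6% and 20.3% of all counts in the ddcc libraries, against 22.7%, 22.4% and 21.8% in the wild-type libraries. The groups did not overlap, and the means were 19.8% ± 0.486 in ddcc and 22.3% ± 0.456 in wild type (SD, n = 3 each), a difference of -2.54 percentage points. The 95% Wilson interval of each library's share was at most 0.0208 points to either side, which covers counting error only. The ratio of the shares, ddcc over wild type, was 0.901 for the LHCA genes, 0.885 for all LHCB genes, 0.861 for the PSA genes and 0.899 for the PSB genes. Both photosystems were represented, with 12 of 16 genes called lower for photosystem I (LHCA and PSA) and 17 of 25 for photosystem II (LHCB and PSB). In these leaf libraries, fewer cells of a type and less RNA per cell cannot be told apart.

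The libraries of 1 genotype also differed among themselves in a shared way. In ddcc, replicate 1 gave the lowest CPM for 32 of the 41 genes and replicate 3 the highest for 28. In wild type, replicate 3 gave the lowest CPM for 37 genes and replicate 1 the highest for 31. Across the 41 genes, the log2 fold change and the mean CPM per kb of exon had a Spearman correlation of 0.33, given as a description since the genes share their libraries.

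The LHCA genes encode the antenna of photosystem I, and 2 of the 4 were called lower. LHCA1, the most abundant of them per kb of exon over the 6 libraries, though in ddcc its 6519 CPM per kb lay below the 6958 CPM per kb of LHCA4, had 8021, 8381 and 8495 CPM in ddcc, against 11066, 10166 and 9839 CPM in wild type. The groups lay apart, and LHCA1 fell by 0.32 on the log2 scale (SE 0.06, adjusted p by edgeR 0.00198), which is 19.9% lower. LHCA2 had 5585, 5989 and 6288 CPM in ddcc and 6805, 6719 and 6570 CPM in wild type, a log2 fold change of -0.17 (SE 0.05, adjusted p 0.04). That call was the weakest of the 29 and was lost with a replicate block, with an offset for exon GC content and length, and when any library other than ddcc replicate 3 was left out, with adjusted p from 0.055 to 0.139. LHCA3 and LHCA4 were not called, with log2 fold changes of -0.12 each and adjusted p of 0.14 and 0.121. Of the 50-base windows of LHCA2's exons, 11.4% also matched elsewhere in the genome, mostly at AT5G28450, which held 18, 18 and 19 counts in ddcc and 25, 18 and 29 counts in wild type.

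The major antenna of photosystem II showed the widest range of changes, with 6 of 9 genes called lower. The LHCB2 proteins are the ones whose phosphorylation lets trimers move towards photosystem I in state transitions, and all 3 LHCB2 genes fell. LHCB2.3 (AT3G27690) had 523, 543 and 525 CPM in ddcc, against 1416, 1335 and 1185 CPM in wild type. No ddcc library came near the wild-type range, and the log2 fold change of -1.31 (SE 0.07, adjusted p by edgeR 2.91e-07) amounts to a level 59.6% lower. LHCB2.1 (AT2G05100) had 1417, 1432 and 1471 CPM in ddcc and 2765, 2696 and 2692 CPM in wild type. This gene had the smallest p of the 41, with a log2 fold change of -0.92 (SE 0.05, adjusted p 2.84e-07), or 47.0% lower. LHCB2.2 (AT2G05070) had 1978, 2079 and 2094 CPM in ddcc and 3250, 3101 and 3108 CPM in wild type, a log2 fold change of -0.62 (SE 0.05, adjusted p 9.1e-06). The summed share of the LHCB2 family in the library counts was 0.406% ± 0.00592 in ddcc and 0.709% ± 0.0116 in wild type (SD, n = 3 each), a ratio of 0.573.

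Within the LHCB2 family the genes did not fall by the same amount. LHCB2.2 made up 50.5%, 51.3% and 51.2% of the family's counts in ddcc, against 43.7%, 43.5% and 44.5% in wild type, so that its share was higher in every ddcc library. LHCB2.3 made up 13.4%, 13.4% and 12.8% in ddcc, against 19.1%, 18.7% and 17.0% in wild type. The share of LHCB2.1 averaged 35.8% ± 0.436 in ddcc and 37.8% ± 0.67 in wild type (SD, n = 3 each), again with no overlap. LHCB2.1 and LHCB2.2 share 308 of their 50-base exon windows with each other, 23.5% and 29.5% of their windows, so the split of reads between them is uncertain. LHCB2.3 has no such window, but 40.6% of its exon length is overlapped on the opposite strand by AT3G27700. That gene held 512, 441 and 472 counts in ddcc and 426, 384 and 372 counts in wild type, beside 10043, 9500 and 9812 LHCB2.3 counts in ddcc and 24276, 21674 and 18031 in wild type. Whether strand was used in counting is not given in the sources used here.

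The 5 LHCB1 genes encode the bulk of the trimeric antenna, and only LHCB1.1 and LHCB1.2 were called. LHCB1.2 (AT1G29910, CAB3) had 5047, 4905 and 4831 CPM in ddcc, against 7905, 7780 and 6946 CPM in wild type. All ddcc libraries lay below the wild-type range, with a log2 fold change of -0.61 (SE 0.06, adjusted p by edgeR 3.51e-05) or 34.7% lower. LHCB1.1 (AT1G29920, CAB2) had 6760, 6233 and 6442 CPM in ddcc and 8268, 8820 and 8211 CPM in wild type, a log2 fold change of -0.38 (SE 0.05, adjusted p 0.000457). LHCB1.3 (AT1G29930, CAB1) had 31168, 30953 and 32752 CPM in ddcc, against 33377, 33331 and 31377 CPM in wild type. The groups overlapped, and its log2 fold change of -0.05 (SE 0.05, adjusted p 0.53) was the nearest to 0 of the 41, although per kb of exon it was the most abundant of them, at 25711 CPM per kb in ddcc and 26581 CPM per kb in wild type.

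LHCB1.2, LHCB1.1 and LHCB1.3 lie side by side on chromosome 1, between positions 10472280 and 10479114 of TAIR10.1. In the same family, LHCB1.4 (LHB1B1) had 9516, 9663 and 11055 CPM in ddcc and 12123, 11119 and 10395 CPM in wild type, a log2 fold change of -0.15 (adjusted p 0.146). LHCB1.5 (LHB1B2) had 17344, 17952 and 20021 CPM in ddcc and 20449, 20229 and 19738 CPM in wild type, a log2 fold change of -0.13 (adjusted p 0.144). Both overlapped between the genotypes, in each case through ddcc replicate 3. The share of LHCB1.3 in the LHCB1 counts was higher in every ddcc library, at 44.2% ± 0.536 in ddcc and 40.9% ± 0.191 in wild type (SD, n = 3 each). The share of LHCB1.2 was 6.9% ± 0.415 in ddcc and 9.42% ± 0.313 in wild type, with no overlap. Between 10.6% and 20.5% of the 50-base exon windows of the LHCB1 genes matched elsewhere, mostly in each other, and at 100 bases between 1.51% and 4.44% did. All of the LHCB1.5 exon length is also covered on the opposite strand by the annotated long non-coding RNA AT2G08665. That RNA had no entry among the counted features, so it could not be analysed.

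**Figure D3:**
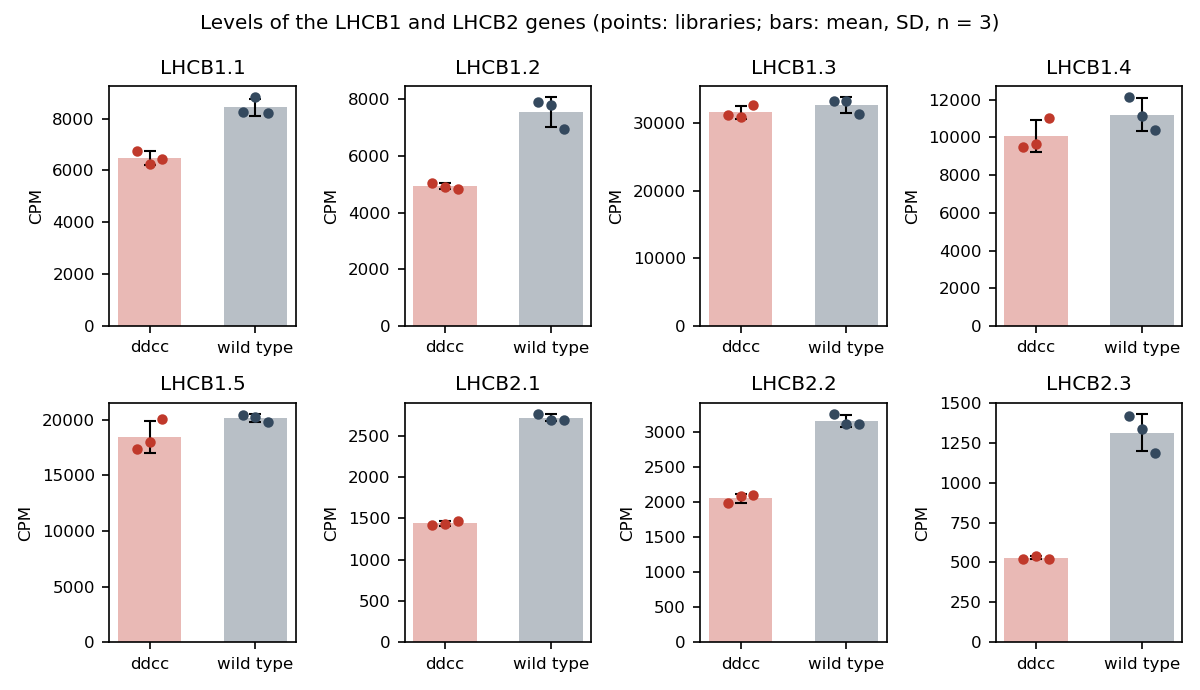
CPM (each panel with its own axis from 0) of the 5 LHCB1 and 3 LHCB2 genes in ddcc (left, red) and wild-type (right, blue) libraries, with bars for means, error bars for the SD (n = 3) and points for libraries. LHCB2.1, LHCB2.2, LHCB2.3, LHCB1.1 and LHCB1.2 show separate groups, whereas LHCB1.3, LHCB1.4 and LHCB1.5 overlap.

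LHCB3, the partner of LHCB1 and LHCB2 in trimers, ran from 8092 to 8755 CPM in ddcc and from 9490 to 10609 CPM in wild type, with a log2 fold change of -0.25 (adjusted p 0.00795). The monomeric antenna proteins link the trimers to the core of photosystem II, and 2 of their 5 genes were called lower. LHCB6 had 2934, 3167 and 3063 CPM in ddcc, against 4185, 4172 and 3835 CPM in wild type, and fell by 0.41 on the log2 scale (SE 0.05, adjusted p by edgeR 0.000317). LHCB5 had 5744, 5720 and 5839 CPM in ddcc and 6833, 6733 and 6543 CPM in wild type, a log2 fold change of -0.22 (SE 0.05, adjusted p 0.00556). Both had separate groups.

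The LHCB4 genes were not called. LHCB4.1, the most abundant monomeric antenna gene per kb of exon, had 5960, 6196 and 6268 CPM in ddcc and 6990, 6821 and 6464 CPM in wild type, a log2 fold change of -0.14 (adjusted p 0.0657) with no overlap. LHCB4.2 had 5039, 5058 and 5448 CPM in ddcc and 6201, 5648 and 5445 CPM in wild type (log2 fold change -0.15, adjusted p 0.0833). LHCB4.3 was the least abundant of the 41, at 16.8 CPM per kb in ddcc and 19.0 CPM per kb in wild type. It had 23.7, 25.9 and 23.5 CPM in ddcc and 25.4, 27.3 and 30.0 CPM in wild type, and its log2 fold change was -0.18 (adjusted p 0.112).

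Among the subunits of photosystem I, 10 of 12 genes were called lower and all 12 had separate groups. PSAH, PSAL and PSAO sit on the side of photosystem I where LHCII trimers dock in state transitions. PSAH2 changed most, with 929, 999 and 956 CPM in ddcc, against 1446, 1406 and 1320 CPM in wild type. Its log2 fold change was -0.53 (SE 0.05, adjusted p by edgeR 4.96e-05), or 30.9% lower. Its paralog PSAH1 was not called, with 1096, 1162 and 1178 CPM in ddcc and 1271, 1227 and 1220 CPM in wild type, a log2 fold change of -0.11 (adjusted p 0.113). PSAH2 thus supplied 45.9%, 46.2% and 44.8% of the PSAH counts in ddcc, against 53.2%, 53.4% and 52.0% in wild type. Corrected for exon length, its mean share was 60.9% in ddcc and 67.5% in wild type. On the opposite strand, 24.8% of PSAH2's exon length is overlapped by ROPGEF11, which held 33, 50 and 33 counts in ddcc and 53, 69 and 59 counts in wild type, and 53.3% of PSAH1's by ROPGEF13, which had at most 1 count in a library.

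PSAL had 4725, 5174 and 5241 CPM in ddcc and 6338, 6123 and 5944 CPM in wild type (log2 fold change -0.28, SE 0.06, adjusted p 0.0036). PSAO had 2810, 2856 and 2979 CPM in ddcc and 3605, 3498 and 3475 CPM in wild type (log2 fold change -0.29, SE 0.05, adjusted p 0.00125). For both the lowest wild-type library lay above the highest ddcc library. PSAN, a lumenal subunit on the plastocyanin side, had 1552, 1561 and 1574 CPM in ddcc, against 2067, 1884 and 1792 CPM in wild type (log2 fold change -0.29, SE 0.06, adjusted p 0.00358).

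PSAD and PSAE form the docking site for ferredoxin on the stromal side. PSAD1 had 3351, 3483 and 3636 CPM in ddcc and 4194, 4173 and 4053 CPM in wild type (log2 fold change -0.25, SE 0.05, adjusted p 0.00418). Its paralog PSAD2 had 2268, 2511 and 2602 CPM in ddcc and 3019, 2966 and 2836 CPM in wild type (log2 fold change -0.26, adjusted p 0.00861). Both were lower with separate groups, and the PSAD2 share of the PSAD counts overlapped between the genotypes, at 41.3% ± 0.837 in ddcc and 41.5% ± 0.345 in wild type (SD, n = 3 each). PSAE1 was called (log2 fold change -0.23, adjusted p 0.0129) and PSAE2 was not (log2 fold change -0.13, adjusted p 0.0829). PSAF, which binds plastocyanin and is the most abundant PSA transcript per kb of exon, had 5704, 5920 and 6165 CPM in ddcc and 6878, 6838 and 6717 CPM in wild type (log2 fold change -0.20, adjusted p 0.0117). PSAG and PSAK, which lie at the edge of the complex, were also called, with log2 fold changes of -0.20 and -0.22 (adjusted p 0.0103 and 0.0136). The call of PSAK was lost without ddcc replicate 1 (adjusted p 0.0513) or wild-type replicate 2 (0.0552).

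The oxygen-evolving complex of photosystem II is shielded in the lumen by the PSBO, PSBP and PSBQ proteins, and 4 of 6 genes of this class were called lower. PSBO stabilises the manganese cluster and is encoded by 2 genes. PSBO2 had 1334, 1329 and 1296 CPM in ddcc, against 1663, 1570 and 1524 CPM in wild type (log2 fold change -0.27, SE 0.05, adjusted p by edgeR 0.00284). PSBO1, the more abundant paralog per kb of exon, had 6850, 6916 and 7286 CPM in ddcc and 7610, 7427 and 7298 CPM in wild type. It was not called (log2 fold change -0.09, adjusted p 0.222), although the groups did not overlap. PSBO2 supplied 15.8% ± 0.643 of the PSBO counts in ddcc and 17.6% ± 0.339 in wild type (SD, n = 3 each), again without overlap.

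PSBP1 had 5028, 5273 and 5354 CPM in ddcc and 6409, 6216 and 5897 CPM in wild type (log2 fold change -0.24, SE 0.05, adjusted p 0.0058). PSBQ2 had 3332, 3461 and 3584 CPM in ddcc and 4336, 3874 and 3922 CPM in wild type (log2 fold change -0.23, SE 0.06, adjusted p 0.0143). PSBQ1 had 1446, 1567 and 1510 CPM in ddcc and 1738, 1748 and 1654 CPM in wild type (log2 fold change -0.18, SE 0.05, adjusted p 0.0205). The groups were separate for these 3 genes, but the call of PSBQ2 was lost without ddcc replicate 1 (adjusted p 0.05 to the digits kept) and that of PSBQ1 without any of 4 libraries, ddcc replicates 1 and 3 and wild-type replicates 1 and 2 (0.0507 to 0.079). PSBR, which helps to hold PSBP and is the most abundant of the class per kb of exon, had 5402, 5319 and 5703 CPM in ddcc, against 5954, 5610 and 5647 CPM in wild type. It was not called (log2 fold change -0.07, adjusted p 0.358), and its groups overlapped through ddcc replicate 3.

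All 5 remaining subunits of photosystem II were called lower, each with separate groups. PSBS (NPQ4), the sensor of lumen acidity in energy-dependent quenching, had 607, 664 and 588 CPM in ddcc, against 799, 891 and 794 CPM in wild type, and fell by 0.42 on the log2 scale (SE 0.06, adjusted p by edgeR 0.000826). PSBY had 1847, 2035 and 2027 CPM in ddcc and 2463, 2485 and 2363 CPM in wild type (log2 fold change -0.31, SE 0.05, adjusted p 0.00189). PSBX had 1801, 1910 and 1964 CPM in ddcc and 2310, 2372 and 2264 CPM in wild type (log2 fold change -0.29, SE 0.05, adjusted p 0.00182). PSBX and PSBY are small membrane proteins at the rim of the core. PSBW, which helps hold the antenna and core together and is the most abundant of the 5 per kb of exon, had 2578, 2674 and 2772 CPM in ddcc and 3223, 3128 and 3076 CPM in wild type (log2 fold change -0.23, SE 0.05, adjusted p 0.00542). PSBTN, a small lumenal protein, had 1665, 1795 and 1781 CPM in ddcc and 2074, 2114 and 1978 CPM in wild type (log2 fold change -0.23, SE 0.05, adjusted p 0.0067).

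In all, 16 shares of paralogs in 8 gene families were compared, and 9 of them did not overlap between the genotypes. No such rate was computed for other gene families. The 16 are not independent, since all paralogs of LHCB1, LHCB2 and LHCB4 are counted and a rise in 1 share lowers others of its family. Each of those 9 reached 0.1 in an exact two-sided permutation test, the smallest p that 3 libraries against 3 allow, and 0.178 after Benjamini-Hochberg adjustment over the 16, so none could pass a threshold of 0.05. The PSAE2 share was among those 9, at 46.7% ± 0.849 of the PSAE counts in ddcc and 45.0% ± 0.461 in wild type (SD, n = 3 each). The shares in the LHCB4, PSAD and PSBQ families and those of LHCB1.4 and LHCB1.5 overlapped.

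**Figure D4:**
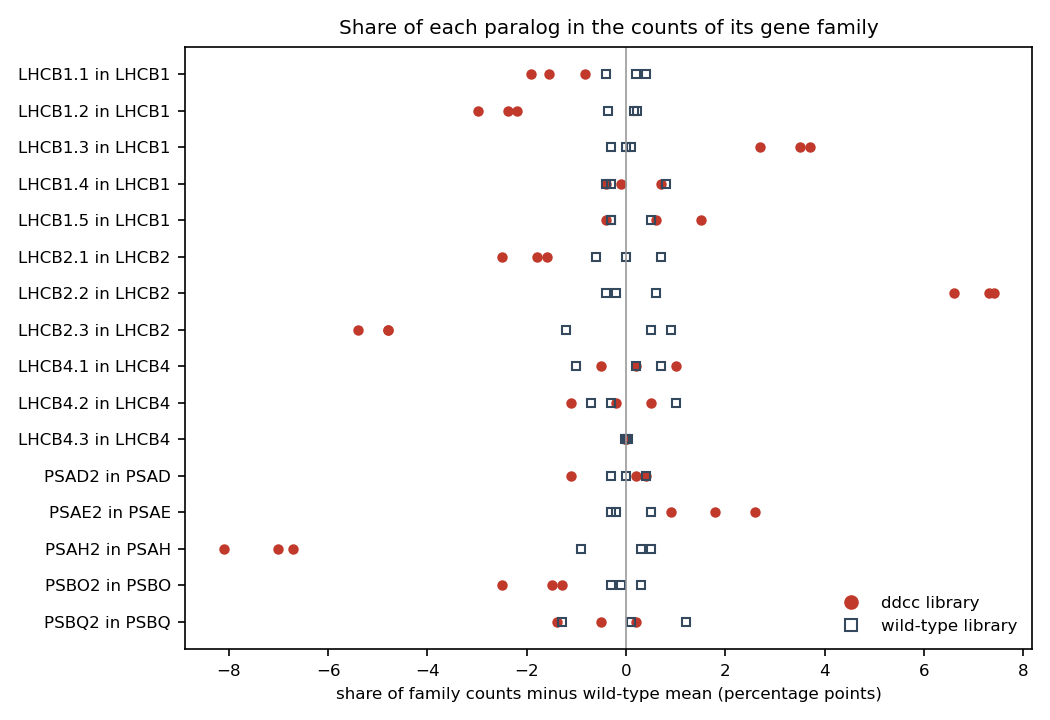
Share of each paralog in the summed counts of its family, as percentage points from the wild-type mean (red discs, ddcc libraries; open squares, wild-type libraries). LHCB2.2, LHCB1.3 and PSAE2 lie to the right in ddcc, and PSAH2, LHCB2.3, LHCB1.2, LHCB2.1, PSBO2 and LHCB1.1 lie to the left, without overlap.

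Beyond these 41 genes, 8 lists of other photosynthesis genes held 76 genes, of which 74 were tested. Of these, 36 (48.6%) were called lower in ddcc and 3 (4.05%) higher, beside 12.7% and 15.5% of all features. Among features of at least 400 CPM other than the 41 genes, these figures were 30.9% and 22.9%. Only some of the listed genes reach that level, and no background matched to their levels was computed. Among the 19 genes of chlorophyll synthesis, 12 were lower. CAO, which makes chlorophyll b, had 172, 171 and 163 CPM in ddcc and 254, 253 and 245 CPM in wild type (log2 fold change -0.57, adjusted p 1.6e-05). PORB, a light-dependent protochlorophyllide oxidoreductase, had 1672, 1691 and 1665 CPM in ddcc and 2434, 2593 and 2313 CPM in wild type (log2 fold change -0.55, adjusted p 3.98e-05). PORA, of the same enzyme family, had 24.3, 31.0 and 29.4 CPM in ddcc and 76.5, 88.8 and 58.5 CPM in wild type (log2 fold change -1.40, adjusted p 4.38e-05). HEMA2, a glutamyl-tRNA reductase gene, was the 1 gene of the list called higher (log2 fold change 0.32, adjusted p 0.00437).

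Of 14 nuclear genes for electron transport and the ATP synthase, 9 were lower, among them ATPD (log2 fold change -0.49, adjusted p 6.79e-05), the leaf ferredoxin FD2 (-0.43, adjusted p 0.000234) and the plastocyanin PETE1 (-0.36, adjusted p 0.0014). The other members of the LHC superfamily gave 5 lower and 1 higher of 9 tested. LHCA6 (-0.44, adjusted p 0.000465), OHP1 (-0.37, adjusted p 0.00279) and LIL3:1 (-0.35, adjusted p 0.00485) were lower, and SEP2, a stress-enhanced protein gene, was higher (0.28, adjusted p 0.00976). Both ELIP genes, known for strong induction by high light, fell short of the filter. In the list of antenna regulation, STN7, the kinase that phosphorylates LHCII in state transitions, had a log2 fold change of -0.35 (adjusted p 0.000619) and ZEP, the zeaxanthin epoxidase, -0.38 (adjusted p 0.00159), and the other 4 of 6 were not called.

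For the signal recognition particle route that inserts LHC proteins into thylakoids, 2 of 4 genes were lower, CPSRP43 (-0.21, adjusted p 0.0117) and CPFTSY (-0.23, adjusted p 0.0175), as log2 fold changes. In the list headed photosystem assembly, which was not limited to assembly factors, 2 of 8 were lower. These were CURT1B (-0.19, adjusted p 0.00957) and PSB28 (-0.35, adjusted p 0.0174). For chlorophyll breakdown 2 of 8 were lower, AT1G44000, a relative of the STAY-GREEN genes (-0.69, adjusted p 7e-05), and ACD2 (-0.33, adjusted p 0.00176). NYC1, a chlorophyll b reductase, was higher (0.24, adjusted p 0.00373).

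Of 6 regulators, GLK2 and GUN1 were lower. GLK2, a transcription factor known to activate antenna and chlorophyll genes, had 49.3, 55.2 and 56.8 CPM in ddcc, against 113, 105 and 108 CPM in wild type. No ddcc library reached the wild-type range, with a log2 fold change of -1.02 (SE 0.06, adjusted p by edgeR 1.66e-06). Its paralog GLK1 had 257, 288 and 287 CPM in ddcc and 293, 263 and 282 CPM in wild type, overlapping groups with a log2 fold change of -0.01 (adjusted p 0.924). GUN1, a plastid protein of chloroplast-to-nucleus signalling, had a log2 fold change of -0.22 (adjusted p 0.0201). HY5 (0.25, adjusted p 0.588), GNC (-0.11, adjusted p 0.306) and CGA1 (-0.06, adjusted p 0.809), further transcription factors of greening, were not called.

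**Figure D5:**
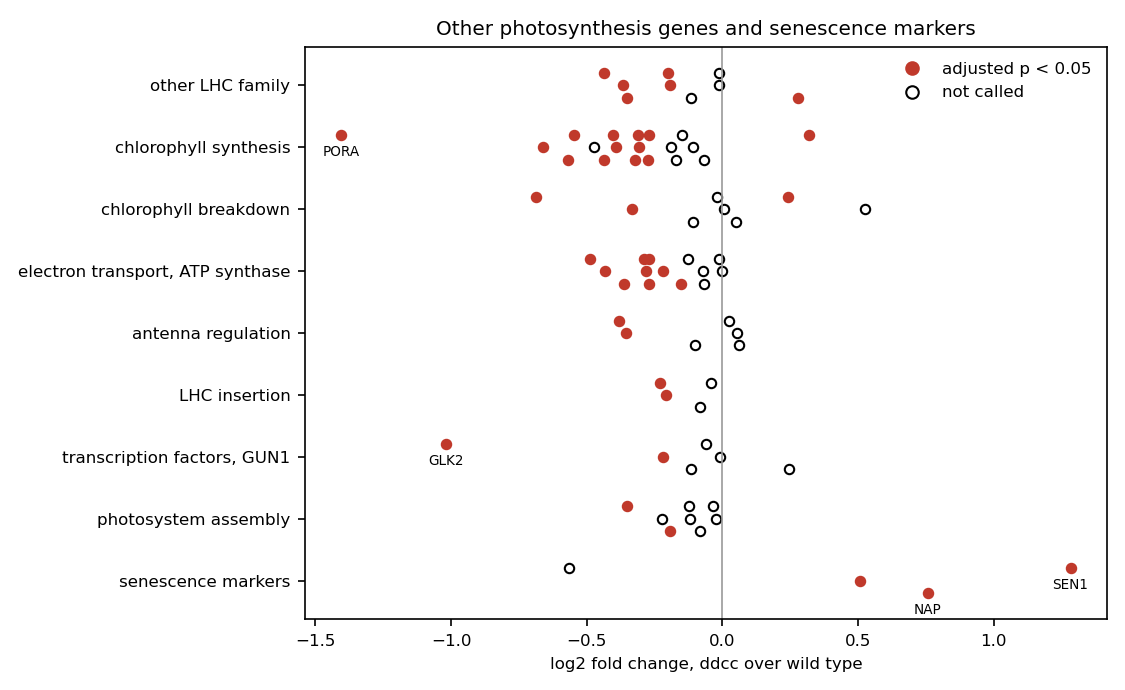
Log2 fold change of ddcc over wild type for the tested genes of 8 further photosynthesis lists and of the senescence markers, with filled discs for an adjusted p under 0.05 and open discs for genes not called; vertical offsets within a row separate points. PORA (-1.40) and GLK2 (-1.02) lie furthest left, and SEN1 (1.28) and NAP (0.76) lie furthest right.

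Senescence lowers photosynthesis transcripts in leaves, so its markers were measured beside the antenna genes. SEN1 had 1256, 1094 and 1489 CPM in ddcc, against 624, 420 and 534 CPM in wild type (log2 fold change 1.28, SE 0.14, adjusted p by edgeR 8e-05). The NAC factors NAP and ORE1 were also higher, with log2 fold changes of 0.76 and 0.51 (adjusted p 0.0043 and 0.00502). SAG13 was not called (log2 fold change -0.56, SE 0.51, adjusted p 0.449). SAG12, the classical late marker, had 0, 40 and 0 counts in ddcc and 0, 37 and 0 counts in wild type and was not tested. The 5 markers summed to 1184 to 1596 CPM in ddcc libraries and 480 to 697 CPM in wild-type libraries. Most of both sums was SEN1, with means of 1280 CPM in ddcc and 526 CPM in wild type. The part of these markers in the lower photosystem transcripts was not tested.

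Antenna transcripts also follow the time of day, which the labels do not give. Of the clock genes looked at after the data were seen, TOC1, an evening gene, had 227, 201 and 219 CPM in ddcc and 138, 121 and 126 CPM in wild type (log2 fold change 0.75, SE 0.07, adjusted p by edgeR 2.08e-05). The morning genes CCA1 and LHY were not called. CCA1 overlapped between the genotypes, at 4.17 to 5.35 CPM in ddcc and 4.72 to 6.22 CPM in wild type. LHY did not overlap, with 0.834, 1.72 and 1.34 CPM in ddcc and 1.81, 2.1 and 2.17 CPM in wild type (log2 fold change -0.65, SE 0.27, adjusted p 0.1). Their part in the lower photosystem transcripts was not tested.

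Outside the antenna, the mesophyll markers moved in both directions. RBCS1A and RCA, for Rubisco and its activase, had log2 fold changes of -0.19 each (adjusted p 0.0342 and 0.0144), CA2 had 0.36 (adjusted p 0.000679), and CA1 was not called. Of the phloem markers SUC2, APL and AHA3, SUC2 and APL were lower (log2 fold changes -0.29 and -0.26, adjusted p 0.0191 and 0.0368), and the 3 summed to 505 to 596 CPM in ddcc libraries and 606 to 707 CPM in wild-type libraries. Of the guard-cell markers, KAT1 was lower and 3 were not called, with sums of 62.1 to 65.6 CPM in ddcc and 62.6 to 66.8 CPM in wild type. Of the epidermal markers, PDF2 was higher, PDF1 lower and ATML1 not called, with sums of 204 to 213 CPM in ddcc and 206 to 242 CPM in wild type. The part of any shift in cell types in the lower photosystem transcripts was not tested.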

How the data were processed

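Libraries were made from the polyA fraction of 500 ng leaf RNA, per the labels' protocols. The deposited table holds raw counts of reads for genes and TEs, with no scaling. The submitters' processing notes name Trim Galore 0.6.0, cutadapt 1.15, STAR 2.7.0f and the build TAIR10. How reads were counted, whether strand was used and how reads with several matches were treated are not given in the sources used here. Row names were matched to loci of the TAIR10.1 RefSeq annotation, which supplied symbols, exon lengths, promoter starts and all coordinates.

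Features were kept with filterByExpr of edgeR 4.0.16 in R 4.3.3 (minimum count 10), scaled with TMM factors and tested in 1 fit over genes and TEs by the quasi-likelihood F test with a term for genotype. Benjamini-Hochberg adjustment ran over the 18498 tested features, with a call at an adjusted p under 0.05. This fit gave each gene's adjusted p in the text, apart from values credited to DESeq2. SE is the size of the log2 fold change over the square root of F. CPM used the scaled totals of tested features, and 3 counts equal 0.156 to 0.197 CPM. Genes within a role class were ranked by CPM per kb of exon averaged over the 6 libraries. The ranking among all features and the limit of 400 CPM used CPM without a length correction, and paralog shares are shares of raw counts. Counts for the 18498 tested features were simulated on the model of ddcc against wild type, with 50 features changed at each size. Of the simulated features, 18341 passed the same filter and were tested. Changed features were drawn only from those with a mean CPM above the median, and dispersions followed their trend with level. For such features the test recovered 36% of changes of 0.3 and 100% of changes of 0.6 on the log2 scale. It made 8 false calls among 18141 unchanged features. In the real data 5214 of 18498 features were called, so the adjustment was stricter in the simulation. The simulated rates therefore do not give the share of shifts missed among the photosystem genes. The photosystem genes not called had log2 fold changes of -0.18 to -0.05. Exon windows of 50 and 100 bases were searched for another perfect match in the genome. Reads were counted without molecular identifiers, so Wilson intervals cover counting error only.

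The 41 genes, the lists and the tests were chosen with earlier results of these data known. Values per library are given for up to 5 called genes with the smallest p in each role class, for the most abundant gene per kb of each class and for paralogs of either. Of each further list, up to 3 called genes per direction with the smallest p are named, and all senescence genes and regulators. Values of the 4 mutated genes are given once. Shares of paralogs were compared by exact two-sided permutation tests. Alternatives were TMM from genes alone, median-of-ratios factors, plain library totals, scaling without the 41 genes, removal of organellar loci, 2 other filters, DESeq2 1.42.0, robust dispersion, a replicate block, leaving out each library, and stricter thresholds. An offset for exon GC content and length, the background of features with at least 400 CPM, and the clock and methyltransferase genes were added after the data were seen. A table of moss library batches was not used here, and the number of unmatched columns of per-sample values was 0.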

Additional observations from a re-analysis of the deposited data

How the results depend on the processing

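Over 17 refits of each of the 41 genes, 679 of 697 log2 fold changes kept both their sign and their side of the threshold, 14 lost a call, 4 gained one and 0 changed sign. Of the 29 calls, 25 held in all 17 refits, and the 4 that did not, LHCA2, PSAK, PSBQ1 and PSBQ2, are given with their values above. LHCB1.5 was called without ddcc replicate 3 (adjusted p 0.0442), LHCB4.1 without wild-type replicate 3 (0.0431) and when means under 50 counts were left out (0.039), and PSAE2 with the offset for exon GC content and length (0.00927). The number of the 41 called lower was 25 to 29 when single libraries were left out, 30 when means under 50 counts were left out, and 22 at an adjusted p under 0.01. When calls also had to reach 0.5 in size on the log2 scale it was 5, and the further lists then gave 6 lower and 0 higher. Of all tested features, 5214 were called, against 2990 at an adjusted p under 0.01 and 2154 at 0.5 or more in size. These drops follow from the stricter thresholds. The labels do not say whether the replicate numbers pair the libraries. Same-numbered libraries deviated with correlations of -0.104, -0.0775 and 0.0262 across features, and differently numbered ones with -0.045 to 0.121. With 3 libraries per genotype these values cannot decide whether the numbers mark pairs. With a replicate block 28 of the 41 were lower, 0 higher, and 4921 features were called in all. LHCA2 lost its call under the block (adjusted p 0.055). The difference in the summed share was -2.82 to -2.35 percentage points when single libraries were left out. Of the 7 paralog shares whose groups overlap, that of LHCB1.5 stayed higher in ddcc whichever library was left out. The other 6 changed sign, the cause was not tested, and their differences, ddcc minus wild type, ran from -0.256 to 0.45 points for LHCB1.4, -0.232 to 0.629 for LHCB4.1, -0.631 to 0.252 for LHCB4.2, -0.0201 to 0.00918 for LHCB4.3, -0.486 to 0.281 for PSAD2 and -1.22 to 0.0174 for PSBQ2. At 15188586 counts or more per library, each of the 41 genes had at least 436 counts in every library, so the 3 libraries per genotype limit their precision, whereas counting error also limits genes with few counts such as HY5, LHY and SAG12.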

Other observations

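SAG12 counts came from replicate 2 alone in both genotypes, with 40 counts in ddcc and 37 in wild type and 0 in the other 4 libraries. The senescence marker SAG13 was also uneven within ddcc, at 2.19, 14.3 and 3.16 CPM, against 9.45, 10.7 and 8.41 CPM in wild type. Replicate 2, the ddcc library with the most SAG13, had the lowest value on the second principal component, at -28. Replicates 1 and 3 of ddcc lay at 20.9 and 6.02. Among the ddcc libraries, replicate 2 gave the lowest CPM for 5 and the highest for 10 of the 41 genes.

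Several close pairs of photosynthesis genes differed in how far they shifted, beyond the pairs described above. Of the magnesium chelatase genes, CHLI2 had a log2 fold change of -0.44 and CHLI1 of -0.31, both called lower. Of the glutamyl-tRNA reductase genes, HEMA1 fell by 0.32 on the log2 scale (edgeR adjusted p 0.000771), whereas HEMA2 rose by 0.32 (adjusted p 0.00437). LIL3:1 was lower at -0.35, and its paralog LIL3:2 was not called at -0.01 (adjusted p 0.863). PGRL1A was lower at -0.27 (adjusted p 0.00198), and PGRL1B was not called at -0.07 (adjusted p 0.484). The differences between these pairs were not tested, and the pairs were picked after their values were seen.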
